A study of Mus musculus with 6 samples.

Results

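Values of 10 genes for the chains of the basement membrane were taken from RNA-seq of muscle stem cells (MuSCs), out of 22706 genes measured. The genes were taken by their symbols, and all 10 passed the minimum mean of 5 for testing. They encode the laminin α chains α2, α4 and α5 (Lama2, Lama4, Lama5), the laminin β1 and β2 chains (Lamb1, Lamb2), the laminin γ1 chain (Lamc1), nidogen-1 (Nid1), perlecan (Hspg2) and the collagen IV α1 and α2 chains (Col4a1, Col4a2). RNA came from cells sorted straight from limb and trunk muscle of wild type mice (control), mdx mice and Sirt6mKO/mdx mice, with 2 libraries per group and 6 in all. Mdx mice lack dystrophin, the protein that links the cytoskeleton of the muscle fibre to its membrane. In Sirt6mKO/mdx mice, which are mdx mice as well, loxP-flanked exons of Sirt6, a gene for a histone deacetylase, were removed by a constitutive Cre recombinase under the control of Pax7. The deletion therefore extends to all muscle cells that descend from Pax7-positive cells.

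The labels give C57BL/6 as the strain of every sample, while the methods of the study name a C57BL/10 substrain as the source of the mdx mutation, and the legends state adult male mice. The labels name no treatment or injury of the mice. Per the methods, the libraries of a group are biological replicates, while the number of animals per library is not given in the sources used here. Cells that carried Sca1, CD45 or CD31 were first removed with magnetic beads. From the rest, MuSCs were sorted by flow cytometry, either as positive for Integrin α7 and CD34 or by a fluorescent reporter.

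The basement membrane is the thin sheet of matrix that wraps each muscle fibre and encloses the MuSC lying against it. Laminins are trimers of an α, a β and a γ chain that polymerize at the cell surface and bind α-dystroglycan and integrins, the former of which is tied to dystrophin inside the fibre. Collagen IV trimers form a separate network, and nidogen and perlecan connect both networks. Laminin with the α2 chain is the main form around adult muscle fibres, and its loss causes a congenital muscular dystrophy. The α5 chain belongs to the laminins of embryonic muscle and regenerating tissue, and both α4 and α5 are chains of blood vessel laminins.

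A normalized read count here is the read count of a gene divided by a size factor for the library. The depth was between 4397732 and 9744324 approximate reads per library, recovered from the deposited values. Pax7, which marks MuSCs, had values from 2167 to 3236 in all 6 libraries. Of 10 MuSC markers Sdc4 alone was called, in all 3 comparisons, at 7692 and 6224 in control, then 1100 and 1049 in mdx, then 2753 and 2822 in the Sirt6mKO/mdx group. Sirt6 was at 41 and 32 (control), 33 and 40 (mdx) and 37 and 30 in the third group. Since a value per gene does not resolve the deleted exons and a lower level was not detected, that group is referred to below by its label, as Sirt6mKO/mdx-labelled libraries or the third group. Xist, which is made from the inactive X chromosome of females, had values of 16772 and 12950 in control, against 7 to 34 elsewhere. The Y-linked gene Ddx3y had values of 3 and 8 in control and was between 1024 and 1767 in the others. In both comparisons with control, sex and genotype therefore cannot be told apart. The mdx libraries and those of the third group were both far below control in Xist and far above it in Ddx3y. Between these groups Xist was called higher in the third (33 and 34 against 7 and 8, log2 fold change 2.02, adjusted p = 0.000533 from limma). Ddx3y was not called between them.

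Markers of other cell types, several of which also make basement membrane, were measured in every library. The summed value of 10 endothelial markers was 966 and 864 in control, then 469 and 490 in mdx, then 681 and 685 in the Sirt6mKO/mdx-labelled libraries. Of its defining genes, Pecam1 was between 20 and 199 and Cdh5 between 2 and 30, and Emcn was at 0 in both libraries of the third group. The sum of 9 pericyte and smooth muscle markers was 9110 and 8295, then 7297 and 7992, then 4601 and 4730, and most of it came from Notch3, which MuSCs express as well. The defining pericyte genes Rgs5, Kcnj8 and Abcc9 were between 13 and 184. The sum of 10 fibro-adipogenic markers was 29316 and 35817, then 46187 and 35848, then 26958 and 34094, with Pdgfra between 15 and 195 and Col3a1 alone between 15579 and 30817. Summed markers were between 124 and 244 for Schwann cells, 86 and 192 for macrophages and leukocytes and 62 and 125 for tenocytes, against 21787 to 29361 for 10 MuSC markers. The leukocyte gene Ptprc was between 0 and 19. The sum of 8 myofibre markers was 7100 and 8766, then 5290 and 1535, then 11413 and 4971. In bulk RNA, fewer cells of a type and less RNA per cell cannot be told apart, and the part of these cells in the results below was not tested.

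The sequences around the transcription starts of 4 genes are shown. Col4a1 and Col4a2 were chosen because they start next to each other and their values were alike across libraries, and Lamb1 and Nid1 because both had their highest values in the mdx libraries. Each is a window of 300 bases from RefSeq on GRCm38.p6, written 5′ to 3′ on the strand of the gene. Capitals mark the motifs GGGCGG, known as the GC box, and CCAAT. A match on the other strand is marked as well and is printed as it reads on the strand of the gene. Col4a1 and Col4a2 lie head to head, at chr8:11312777-11313076 on the minus strand and chr8:11312555-11312854 on the plus strand, and their windows share 78 bases. The windows of Lamb1 and Nid1 are chr12:31265043-31265342 and chr13:13437352-13437651, both on the plus strand.
Col4a1: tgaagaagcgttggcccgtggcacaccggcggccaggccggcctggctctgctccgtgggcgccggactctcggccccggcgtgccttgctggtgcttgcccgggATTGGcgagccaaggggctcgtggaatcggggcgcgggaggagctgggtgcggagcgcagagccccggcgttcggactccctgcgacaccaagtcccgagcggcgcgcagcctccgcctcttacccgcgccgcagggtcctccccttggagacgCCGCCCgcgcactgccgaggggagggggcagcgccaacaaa
Col4a2: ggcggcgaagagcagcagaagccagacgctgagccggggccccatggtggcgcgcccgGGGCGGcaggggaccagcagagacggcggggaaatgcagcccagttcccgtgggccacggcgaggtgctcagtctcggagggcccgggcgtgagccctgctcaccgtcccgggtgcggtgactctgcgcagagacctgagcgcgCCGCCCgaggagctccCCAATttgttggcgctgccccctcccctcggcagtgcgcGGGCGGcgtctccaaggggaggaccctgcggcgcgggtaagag
Lamb1: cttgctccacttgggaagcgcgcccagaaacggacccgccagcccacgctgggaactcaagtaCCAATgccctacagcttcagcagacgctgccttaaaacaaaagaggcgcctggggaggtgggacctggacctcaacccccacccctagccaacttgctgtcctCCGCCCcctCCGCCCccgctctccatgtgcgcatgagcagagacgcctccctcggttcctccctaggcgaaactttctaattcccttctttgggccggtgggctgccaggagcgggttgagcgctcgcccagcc
Nid1: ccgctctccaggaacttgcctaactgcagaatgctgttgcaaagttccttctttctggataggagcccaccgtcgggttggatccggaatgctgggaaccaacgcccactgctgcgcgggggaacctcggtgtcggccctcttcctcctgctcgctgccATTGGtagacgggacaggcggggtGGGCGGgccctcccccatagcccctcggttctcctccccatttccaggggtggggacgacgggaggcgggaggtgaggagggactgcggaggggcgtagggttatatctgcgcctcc

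All 4 windows held both motifs. RefSeq windows were matched for 8 of the 10 genes, all but Lama4 and Lamc1. GGGCGG on either strand was in 7 of these 8 windows and in 35.7% of all 32851 windows of the same length. The match of Col4a1 lies in the bases shared with Col4a2 and is marked in both windows, so the same site counts for both genes. CCAAT was in 4 of 8, those printed here for the values of their genes, and in 37.4% of all windows. The TATA box letters TATAAA were in none of the 8 and in 13.6% of all windows. The AP-1 site letters TGANTCA were also in none, and in 7.8% of all windows. The 4 windows were 74.0%, 73.7%, 63.7% and 64.7% G or C in the order printed, above the median of 52.7% of all windows. Among the windows not printed, Lama5 (72.7%) and Hspg2 (70.3%) were above this median, and Lama2 (50.3%) and Lamb2 (44.0%) were below it. A match describes letters in these windows only.

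Levels of different genes were compared per kilobase (kb) of annotated exon. On this scale Col4a1, Lamc1, Hspg2, Lama2 and Col4a2 took the first 5 places in each of the 6 libraries, with mean normalized read counts per kb in control of 900 ± 238, 894 ± 99.1, 722 ± 4.5, 442 ± 36.5 and 300.3 ± 79.1 (SD, n = 2). Lamb2 followed at 197 ± 43.9, and Lamb1 (55.2 ± 30.8), Nid1 (59.0 ± 19.5) and Lama5 (38.1 ± 10.4) were close together. Lama4 was last in every library, at 3.48 ± 0.352. Col4a1 and Lamc1 did not differ beyond their spread in control, nor did Lamb1, Nid1 and Lama5. In mdx, Lamb1 (146 ± 0.927) was level with Lamb2 (136 ± 13.7), above Nid1 (110 ± 8.15) and Lama5 (67.4 ± 25.0). In the Sirt6mKO/mdx-labelled libraries, Lama5 (86.6 ± 2.11) was above Nid1 (61.0 ± 10.5) and Lamb1 (48.4 ± 7.06), and the last 2 did not differ beyond their spread. Per kb, Lama2 was the highest of Lama2, Lama4 and Lama5 in all 6 libraries. On the same scale Lamc1 was above the summed Lamb1 and Lamb2, which were at 262 and 243 in the control libraries.

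**Figure D1:**
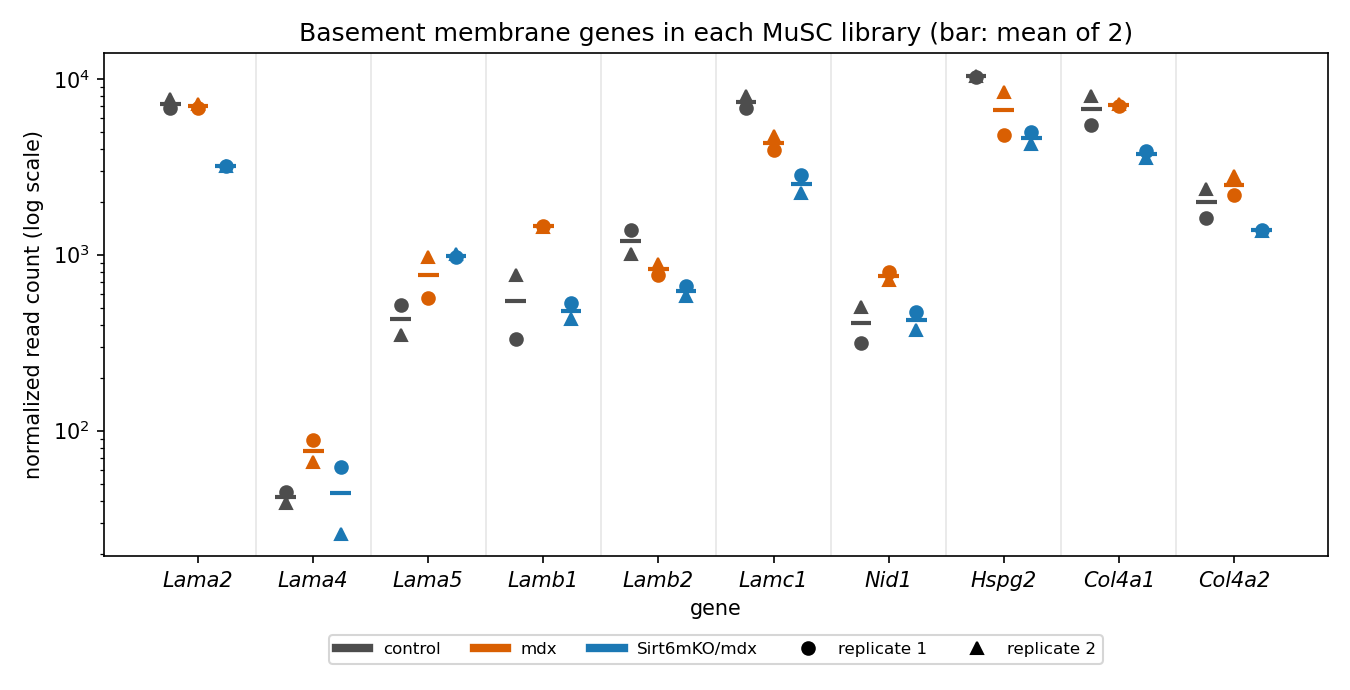
Normalized read count (log scale) of each of the 10 genes in the control, mdx and Sirt6mKO/mdx libraries. Circles are replicate 1, triangles replicate 2 and bars the mean of 2. Lama4 is the lowest gene in every library (26 to 88), and the blue points of Lama2 (3191 and 3174) lie below all its other points.

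The laminin α2 gene Lama2 (ENSMUSG00000019899; GRCm38 chr10:26981288-27616942, minus strand) was lower in the Sirt6mKO/mdx-labelled libraries than in both other groups. Its normalized read count was 6799 and 7643 in control, then 6856 and 7166 in mdx, then 3191 and 3174 in the Sirt6mKO/mdx-labelled libraries. The control and mdx libraries overlapped, and the third group lay below all of them. Its mean in mdx was 2.20 times that in the third group. Tested with limma on log2(value + 1) over 15915 genes with Benjamini-Hochberg adjustment, Lama2 fell against mdx, with a log2 fold change of -1.14 (SE 0.32, 95% interval -1.83 to -0.45, adjusted p = 0.0408). Against control it fell by 1.18 on the log2 scale (adjusted p = 0.0343), and between mdx and control the log2 fold change was -0.04 (adjusted p = 0.949). Both falls are calls, which needed an adjusted p of at most 0.05 and an absolute log2 fold change of at least 1. These calls, and those of Lama5, Lamb1 and Lamc1 below, were all lost without a minimum mean and with one prior variance for all genes, where 0 of the 10 genes were called in each comparison. An antisense gene shares 631 of its exonic bases (3.86%). Both calls were lost when either library of a group compared was left out. The log2 fold change against mdx was then -1.11 to -1.17 (adjusted p 0.126 to 0.297) and that against control -1.09 to -1.26 (adjusted p 0.0591 to 0.271).

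Lama5 (ENSMUSG00000015647; chr2:180176373-180225859, minus strand) was the only one of the 10 genes whose mean was highest in the third group. Its values were 517 and 350 in control, then 567 and 969 in mdx, then 969 and 1003 in the Sirt6mKO/mdx-labelled libraries. The third group touched the mdx group at 969 and lay apart from control. Lama5 rose against control with a log2 fold change of 1.21 (SE 0.29, 95% interval 0.59 to 1.83, adjusted p = 0.0178), a ratio of means of 2.28. The log2 fold change was 0.80 in mdx against control (adjusted p = 0.072) and 0.41 in the third group against mdx (adjusted p = 0.407), and neither passed. When 1 library was left out, the former ranged from 0.41 to 1.19 and the latter from 0.02 to 0.8. The call against control was lost without control replicate 2 (0.93, adjusted p = 0.153) and without either library of the third group (1.24 and 1.19, adjusted p 0.141 and 0.19). It was also lost when libraries were scaled to equal totals (0.61), a scaling under which the difference from mdx turned to -0.22 and the median over all genes was -0.58.

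Lama4 (ENSMUSG00000019846; chr10:38965515-39110188, plus strand), the α4 chain, had values of 45 and 39, 88 and 66, and 62 and 26 in the same order of groups. These rest on 14 to 134 approximate reads per library. The mdx libraries were above the others, and the 2 libraries of the third group lay on both sides of control. No comparison passed, with log2 fold changes of 0.85, -0.90 and -0.06 (adjusted p 0.258, 0.265 and 0.965).

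The make-up of the summed RNA of the α chain genes Lama2, Lama4 and Lama5 differed between libraries. Lama1 and Lama3 are not in this sum. In control, the normalized read counts of Lama3 (622 and 533) were above those of Lama5 (517 and 350). Per kb, Lama5 was 9.76% and 6.13% of the sum of Lama2, Lama4 and Lama5 in control, then 10.4% and 16.1% in mdx, then 29.8% and 31.0% in the Sirt6mKO/mdx-labelled libraries. Means by group came to 7.94% ± 2.57, 13.3% ± 3.99 and 30.4% ± 0.82 (SD, n = 2). The third group lay above all other libraries, while Lama2 took 89.4% and 93.2%, then 88.0% and 82.9%, then 68.4% and 68.3%. Lama4 was between 0.64% and 1.8% throughout. The summed α chains per kb were 465 and 502 in control, then 477 and 529 in mdx, then 286 and 285 in the third group. These shares sum to 100% in a library and are given with no test, and a share within a library does not depend on its size factor. Without division by length the Lama5 share was 23.4% in the third group.

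**Figure D2:**
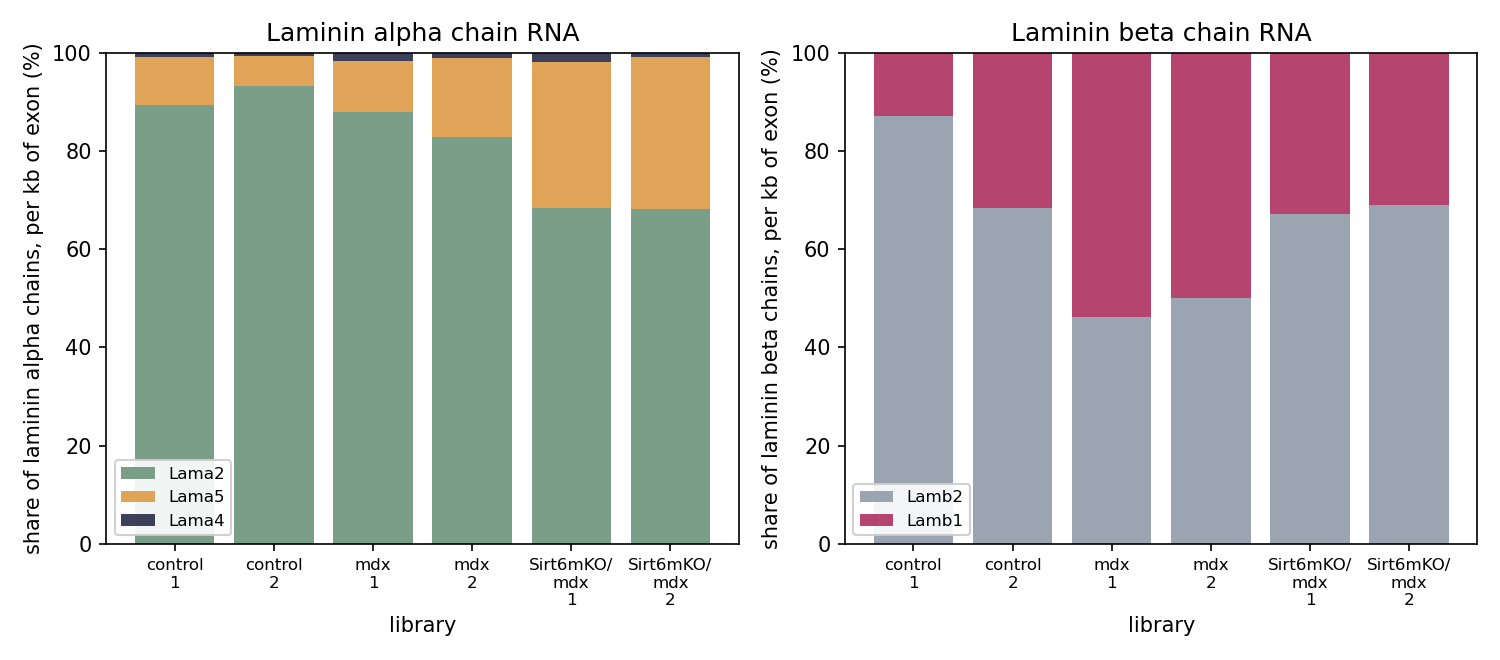
Share (%) taken by each laminin chain in each library, from normalized read counts per kb of exon. Shares are of the sum of Lama2, Lama4 and Lama5 (left) and of the sum of Lamb1 and Lamb2 (right). The Lama5 share is between 6.13% and 16.1% in control and mdx and near 30% in the 2 Sirt6mKO/mdx libraries, and the Lamb1 share is highest in the 2 mdx libraries (53.7% and 49.95%).

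The β1 chain gene Lamb1 (ENSMUSG00000002900; chr12:31265234-31329644, plus strand) had its highest values in mdx. Its values were 331 and 763 in control, then 1453 and 1440 in mdx, then 529 and 430 in the Sirt6mKO/mdx-labelled libraries. Both mdx libraries lay above the other 4, and the third group lay between the control libraries. Lamb1 rose in mdx against control (log2 fold change 1.52, SE 0.32, adjusted p = 0.00509) and fell in the third group against mdx (-1.60, SE 0.32, adjusted p = 0.00683). The ratio of means was 2.64 and 0.331 respectively. Against control the third group had a log2 fold change of -0.08 (95% interval -0.76 to 0.61, adjusted p = 0.921). The rise in mdx was 0.92 when control replicate 1 was left out and 2.12 when control replicate 2 was, the control libraries standing far apart. Its call was lost without control replicate 1 or without either mdx library (adjusted p 0.0602, 0.0646 and 0.0524). The call against mdx was lost whichever library of the 2 groups was left out, at -1.45 to -1.75 (adjusted p 0.0767 to 0.134). The comparisons share the mdx libraries, so the rise and the fall are not separate observations.

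Lamb2 (ENSMUSG00000052911; chr9:108479862-108490530, plus strand), whose β2 chain is concentrated at the neuromuscular junction, had its highest values in control. They were 1388 and 1010 in control, then 767 and 885 in mdx, then 665 and 585 in the third group, and no groups overlapped. Its log2 fold change in the third group against control was -0.92 (SE 0.25, adjusted p = 0.0327), which missed the minimum of 1 for a call. It was -0.52 in mdx against control (adjusted p = 0.173) and -0.40 in the third group against mdx (adjusted p = 0.346). Per kb, Lamb1 made up 12.8% and 31.7% of the β chain RNA in control, then 53.7% and 49.95% in mdx, then 32.8% and 31.1% in the third group. Per kb the mdx libraries therefore held about equal β1 and β2 chain RNA, and the other 4 held more β2. Without division by length, the Lamb1 share was 65.45% and 61.94% in mdx and between 19.26% and 44.3% in the other 4.

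Lamc1 (ENSMUSG00000026478; chr1:153218922-153332786, minus strand), the γ1 chain found in most laminins with α2, α4 or α5, was highest in control and lowest in the third group. Its values were 6813 and 7972 in control, then 3921 and 4730 in mdx, then 2832 and 2232 in the Sirt6mKO/mdx-labelled libraries. The 3 groups did not overlap. Lamc1 fell in the third group against control, by 1.55 on the log2 scale (SE 0.31, adjusted p = 0.00691), and its mean in control was 2.92 times that of the third group. Neither step passed by itself, at -0.77 in mdx against control (adjusted p = 0.107) and -0.78 in the third group against mdx (adjusted p = 0.139). The call was lost without control replicate 2 (-1.44, adjusted p = 0.0512) and without either library of the third group (-1.72 and -1.38, adjusted p 0.0784 and 0.185).

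Nid1 (ENSMUSG00000005397; chr13:13437602-13512275, plus strand), whose product bridges laminin and collagen IV, had values of 314 and 505 in control, then 801 and 721 in mdx, then 475 and 372 in the third group. Both mdx libraries lay above the other 4, as for Lamb1. The log2 fold change in mdx against control was 0.93 (SE 0.27, adjusted p = 0.0298), below the minimum of 1. It ranged from 0.59 to 1.27, on both sides of this minimum, when 1 library was left out. Against mdx the third group was at -0.85 (adjusted p = 0.0644), and against control at 0.08 (adjusted p = 0.901). An antisense gene shares 143 of the exonic bases of Nid1 (2.06%), and the use of strand in the counting is not stated.

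Hspg2 (ENSMUSG00000028763; chr4:137468769-137570630, plus strand), for the heparan sulfate proteoglycan perlecan, had values of 10285 and 10376 in control. The mdx libraries were at 4807 and 8420 and those of the third group at 5011 and 4230. Both later groups lay below control and overlapped each other. No comparison passed, with log2 fold changes of -0.70, -0.47 and -1.17 for mdx against control, the third group against mdx and the third group against control (adjusted p 0.228, 0.481 and 0.0689). The last was called in 4 of 17 alternative settings, namely a minimum mean of 50, a robust prior variance, voom and equal totals, and its adjusted p over the 17 ranged from 0.00572 to 0.41.

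The collagen IV genes Col4a1 (ENSMUSG00000031502; chr8:11198423-11312826, minus strand) and Col4a2 (ENSMUSG00000031503; chr8:11312805-11449287, plus strand) encode the 2 chains of the most widespread collagen IV trimer. Col4a1 was at 5458 and 7971 in control, then 6972 and 7190 in mdx, then 3885 and 3556 in the third group. Col4a2 was at 1618 and 2358, 2172 and 2796, and 1379 and 1365. For both genes the control and mdx libraries overlapped and the third group lay below all 4 of them. Against mdx the log2 fold change was -0.93 for Col4a1 (SE 0.34, adjusted p = 0.103) and -0.84 for Col4a2 (SE 0.28, adjusted p = 0.0716). Against control it was -0.83 and -0.51 (adjusted p 0.151 and 0.284), and in mdx against control 0.10 and 0.34 (adjusted p 0.873 and 0.446). The ratio of Col4a1 to Col4a2 was 3.37 and 3.38 in control, then 3.21 and 2.57 in mdx, then 2.82 and 2.60 in the third group. The genes share 22 exonic bases, chr8:11312805-11312826, at their starts.

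In mdx against control, 1 of the 10 genes was called, Lamb1, which was higher. Among all genes tested, 14.2% were called, 6.89% higher and 7.34% lower. Of the 10, 4 had a negative log2 fold change, against 49.8% of all genes, and the 2 groups did not overlap for 7, against 57%. The median log2 fold change of the 10 was 0.22 and that of all genes 0.00. The share of the 10 that was called was thus near that of all genes. Of the marker lists, 7 of 8 myofibre genes were lower in mdx, 4 of them called, and of 8 endothelial genes tested 6 were lower, 2 of them called. Of 10 fibro-adipogenic genes 8 were higher in mdx, and 2 of them were called, Ly6a (2.73, adjusted p = 0.0363) and Col1a1. Col1a1, for a chain of collagen I, was at 634 and 862 in control, then 2013 and 1898 in mdx, then 1136 and 747 in the third group. It rose in mdx (adjusted p = 0.00284), and its mdx libraries lay above the other 4, as for Lamb1 and Nid1. Col3a1 shared this order (0.57, adjusted p = 0.535) and the 8 other genes of the list did not, among them Pdgfra, at 195 and 18 in mdx. Acta2, of the pericyte and smooth muscle list, had this order as well, at 807 and 1604, then 2837 and 2334, then 924 and 1558, and it rose in mdx (1.18, adjusted p = 0.0266). The MuSC markers Cdh15, Itga7 and Vcam1 also had their mdx libraries above the other 4, and none of them was called. Of the remaining lists of other cell types, Lyz2 (3.22) was called higher in mdx, and Abcc9 (-1.43), Cd68 (-1.60), Fmod (-1.63) and Mkx (-3.42) lower.

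In the Sirt6mKO/mdx-labelled libraries against mdx, 2 of the 10 genes were called, Lama2 and Lamb1, both lower. Among all genes tested, 8.17% were called, 5.62% higher and 2.54% lower. Of the 10, 9 had a negative log2 fold change, against 48.8% of all genes, the exception being Lama5, which turned to -0.22 with libraries scaled to equal totals. The libraries did not overlap for 8 of the 10, against 56% of all genes. The median was -0.85, against 0.02 over all genes. The summed value of the 10 genes was 28404 and 34383 in mdx and 18998 and 16973 in the third group. The 10 most abundant genes of each library took 22.7% and 22.9% of all values in mdx and 32.6% and 30.0% in the third group, against 21.7% and 11.7% in control, and the part of this difference in the result was not tested. Of the marker lists, all 8 myofibre genes were higher in the third group than in mdx (median log2 fold change 1.20), and 3 were called, Myh2 (2.43), Myh1 (1.79) and Acta1 (1.55). Of 10 fibro-adipogenic genes 5 were lower, and Col1a1 was called (-1.08, adjusted p = 0.023). The summed endothelial markers were higher (681 and 685 against 469 and 490), and most of each sum was Tek (log2 fold change 0.42). Of the 8 endothelial genes tested 6 were higher and 2 were lower, Flt1 (-1.13) and Vwf (-0.24). Cdh5 (2.55, adjusted p = 0.0608), Kdr (3.03, adjusted p = 0.0667) and Pecam1 (1.48, adjusted p = 0.0799) had larger log2 fold changes than Tek, and none of the list was called. The summed pericyte and smooth muscle markers were lower (4601 and 4730 against 7297 and 7992), which came from Notch3 (-0.68, adjusted p = 0.205) and Acta2 (-1.10, adjusted p = 0.0535). Of the 8 genes of that list tested, 5 had a positive log2 fold change, among them Rgs5 (1.17, adjusted p = 0.105), and the median was 0.27. All 10 genes have more than 6 kb of exon. Over the 4361 tested protein-coding genes of at least 6 kb, the median log2 fold change was -0.12 and 57.3% were lower, while over the 3806 genes under 3 kb it was 0.12. Among 377 genes of at least 6 kb with a mean of at least 1000 it was -0.11. The part of exon length in the result was not tested.

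Against control, the third group had 3 of the 10 genes called, Lama5 higher and Lama2 and Lamc1 lower. Among all genes tested, 7.87% were called, 5.19% higher and 2.68% lower. Of the 10, 8 had a negative log2 fold change, against 49.5% of all genes. The libraries did not overlap for 7 of the 10, against 51.6%, and the median was -0.67, against 0.01. Of the markers of other cell types, Notch3 (-1.25, adjusted p = 0.0255) was called lower, and the macrophage gene Lyz2 (3.75, adjusted p = 0.027) and the tenocyte gene Scx (2.72, adjusted p = 0.0167) were called higher. None of the myofibre, endothelial or fibro-adipogenic genes was called. Among the 377 long and abundant genes of the preceding comparison the median was -0.37, and 75.9% were lower.

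**Figure D3:**
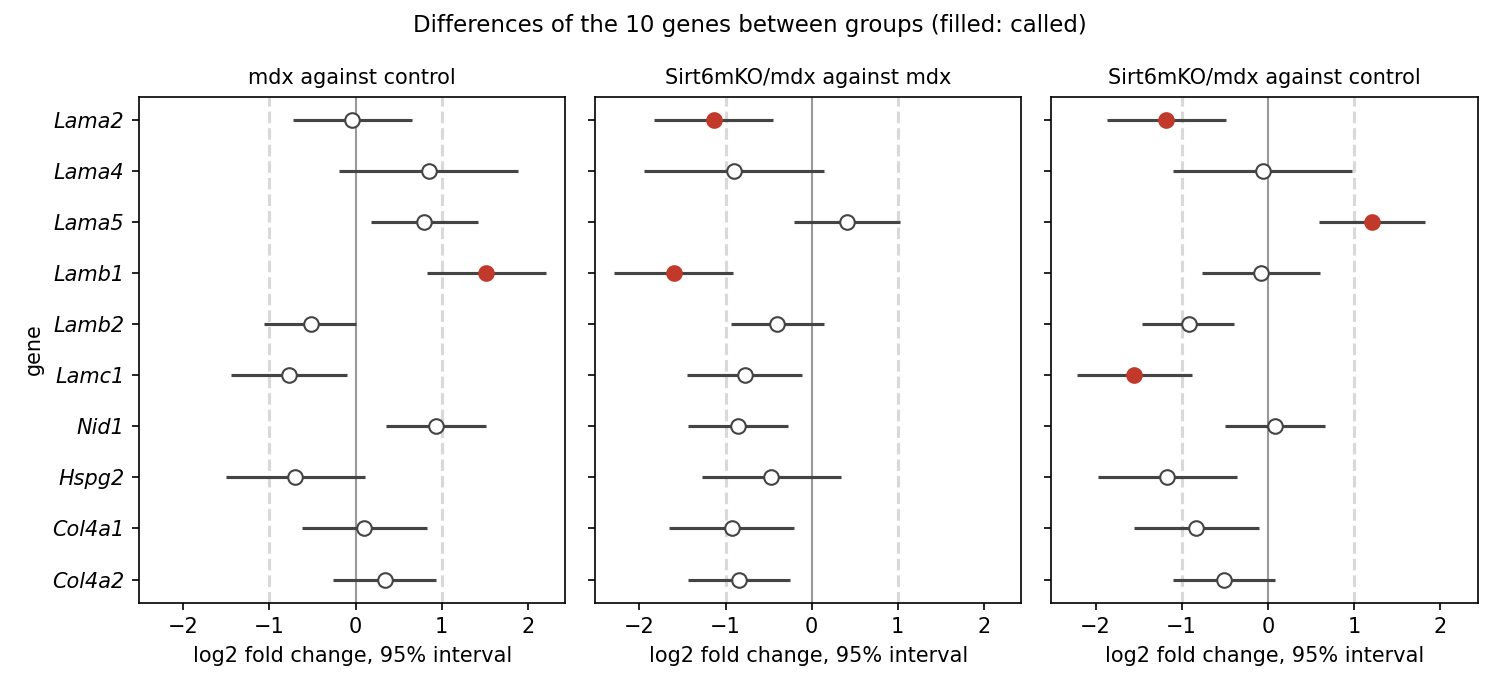
Log2 fold change of the 10 genes in each comparison, with its 95% interval from limma; filled points are called and dashed lines mark a log2 fold change of 1 in either direction. Lamb1 is to the right in mdx against control (1.52) and to the left in Sirt6mKO/mdx against mdx (-1.60), and 9 of 10 points are left of 0 in the latter, where Lama5 (0.41) turned to -0.22 with libraries scaled to equal totals.

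Other genes of the basement membrane were taken as lists. Of the 5 other laminin chains 4 were tested. Lama3, the α3 chain of epithelial laminin, was at 622 and 533 in control, then 111 and 75 in mdx, then 141 and 117 in the third group, with log2 fold changes of -2.64 in mdx and -2.16 in the third group against control (adjusted p 2.7e-05 and 0.000339). Lamc3 rose in the third group against mdx (2.89, adjusted p = 0.021), from 6 and 13 to 37 and 141, with a wide gap between the latter libraries. Of 4 other collagen IV chains, Col4a5 was called. This X-linked gene was at 29 and 73 in control, then 323 and 245 in mdx, then 77 and 119 in the third group, and it rose in mdx (2.58, adjusted p = 0.000725) and fell in the third group against mdx (-1.55, adjusted p = 0.0333).

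Of 19 other basement membrane components, 18 were tested. In mdx against control 3 rose, Matn2 (matrilin-2, log2 fold change 1.32), Col18a1 (1.27) and Nid2 (nidogen-2, 1.01), and 4 fell, Smoc1 (-3.30), Fras1 (-2.23), Hmcn1 (hemicentin-1, -1.79) and Vwa1 (-1.18). In the Sirt6mKO/mdx-labelled libraries against mdx none rose and 4 fell, namely Matn2 (-1.66), Col15a1 (-1.63), Sparc (-1.59), whose product binds collagen IV, and Col18a1 (-1.09). The values of Matn2 were 438 and 598 in control, then 1419 and 1150 in mdx, then 399 and 406 in the third group. Its mdx libraries were the highest by far, and the other groups lay close together. Against control, the third group had 5 lower, Smoc1 (-3.20), Fras1 (-2.95), Col15a1 (-1.71), Hmcn1 (-1.60) and Frem1 (-1.13), and none higher. The median log2 fold changes of the list were 0.41, -0.32 and -0.16 in the 3 comparisons in the order given.

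Among 17 genes for synthesis and cross-linking of collagen IV, the prolyl 4-hydroxylase genes P4ha1 and P4ha2 fell in mdx (-2.01 and -1.94, adjusted p 6.8e-05 and 0.000106) and Ppib, for a collagen chaperone, rose (1.44, adjusted p = 0.00465). P4ha1 was at 1843 and 2414 in control, then 546 and 501 in mdx, then 771 and 836 in the third group. Against mdx the third group had 1 called, Pxdn (-1.10, adjusted p = 0.0376), the peroxidase that cross-links collagen IV. Against control it had P4ha1 (-1.39), Crtap (-1.19) and P4ha2 (-1.01) lower, and 16 of the 17 had a negative log2 fold change, against 49.5% of all genes.

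Of 11 receptors for laminin and collagen IV, Dag1, the dystroglycan gene, was called in both comparisons of the third group. Its values were 8736 and 10961 in control, then 10404 and 10977 in mdx, then 3631 and 2908 in the Sirt6mKO/mdx-labelled libraries, so that the third group lay below all other libraries, as for Lama2. Dag1 fell against mdx (-1.72, SE 0.36, adjusted p = 0.00865) and against control (-1.59, SE 0.36, adjusted p = 0.0135). Bcam, a receptor for laminin with the α5 chain, rose in mdx (1.10, adjusted p = 0.024) and was called in no other comparison. Among genes that glycosylate dystroglycan and so make it bind laminin, Dpm1 fell in mdx (-2.23, adjusted p = 0.00198) and rose in the third group against mdx (1.61, adjusted p = 0.0253).

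Of these calls of list genes, 6 of 14 in mdx against control (Col4a5, Dpm1, Lama3, P4ha1, P4ha2 and Smoc1), 1 of 9 in the third group against mdx (Matn2) and 1 of 10 in the third group against control (Lama3) held whichever single library was left out. The comparison with mdx lost most calls without Sirt6mKO/mdx replicate 1 or 2, with 8 of 9 lost in each case.

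**Figure D4:**
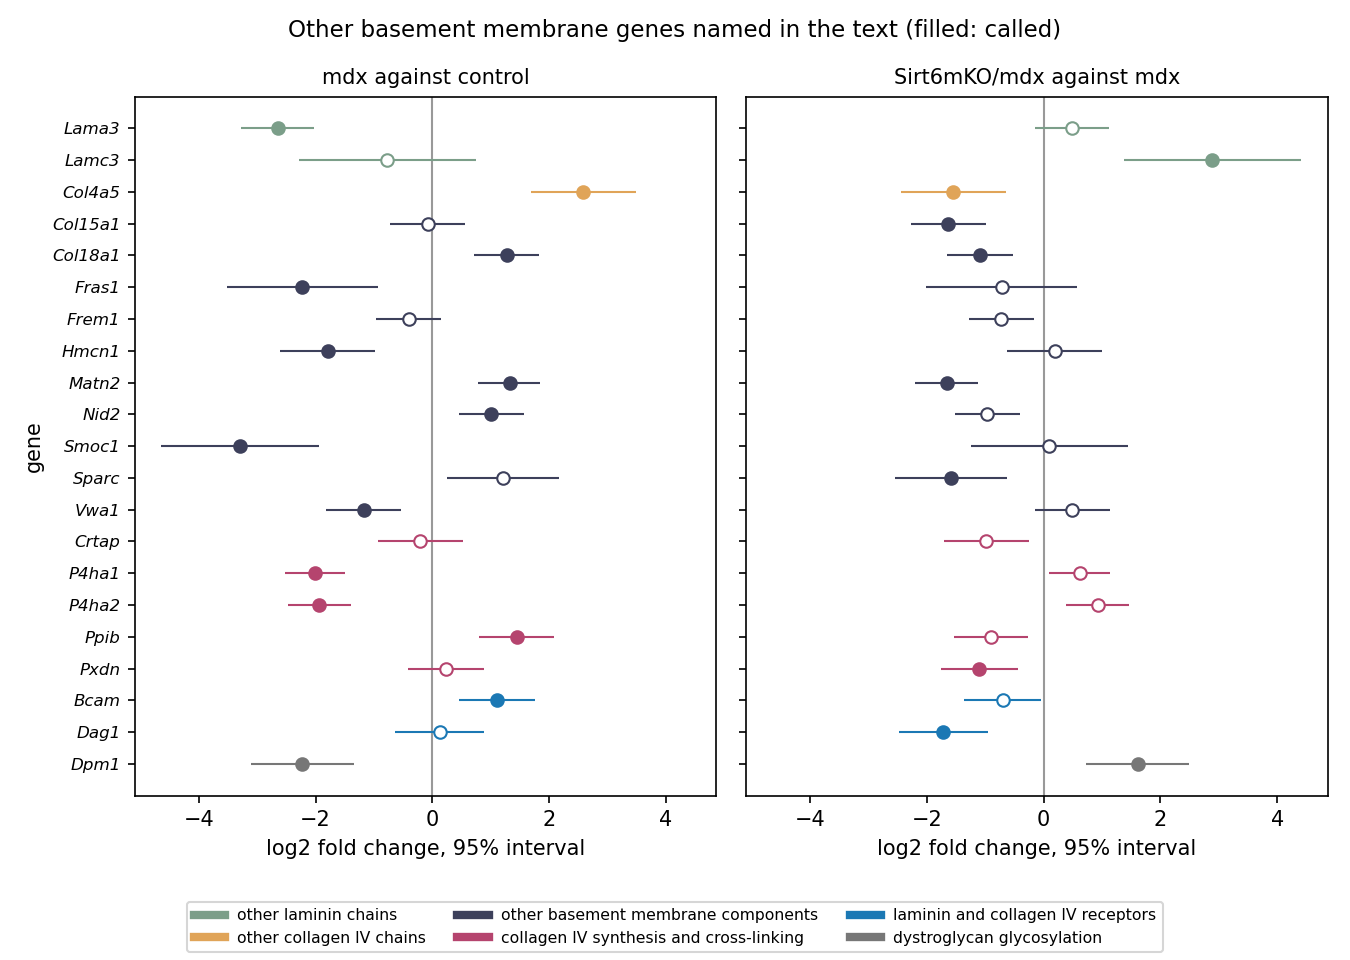
Log2 fold change, with its 95% interval, of the other basement membrane genes named in the text, in mdx against control (left) and Sirt6mKO/mdx against mdx (right); colours give the gene list and filled points are called. Matn2, Col18a1 and Col4a5 are filled to the right on the left side and to the left on the right side, and Dag1 is filled on the right side only (-1.72).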

How the data were processed

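Total RNA of sorted MuSCs was depleted of ribosomal RNA and read by Ion Torrent sequencing. Per the methods, the authors trimmed reads with Reaper after FastQC 0.10.1, aligned them with STAR (version 2.4.2a in the submitters' processing notes) to the mouse genome (GRCm38, mm10), and counted reads that fell on 1 gene and 1 place with featureCounts 1.4.5-p1 of Subread. The processing notes name DESeq2 1.6.0. The use of strand is not given in the sources used here. The deposited values were whole numbers of the form that rounded counts divided by a size factor take, so their unit was treated as a score (a normalized read count) made by the authors. The main test was therefore not one that needs raw counts. Voom, a method for read counts, was applied to these values as an alternative only. Size factors of 0.537 to 1.53 were recovered from skipped and doubled whole numbers, and value times size factor gave the approximate reads. In simulations on the 22706 genes this recovery returned 100 of 100 random factors within 1%, while a further one, a ratio of small whole numbers, was not recovered. No exact counting intervals were derived from these.

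Values were tested as log2(value + 1) with limma 3.58.1 (R 4.3.3). The prior variance was allowed to vary with the mean, the 6 libraries entered a single fit, and no block was used. Fold changes are on this scale, which understates changes of low genes. Genes with a mean of at least 5 over the 6 libraries were tested (15915), two-sided, with Benjamini-Hochberg adjustment over all of them. A gene was called at an adjusted p of at most 0.05 and an absolute log2 fold change of at least 1, and every adjusted p in the text comes from limma, in this fit or, where a library was left out or a setting is named, in a refit. The script was tested on simulated data. Exon lengths came from the union of annotated exons in GENCODE M21 of GRCm38, promoter windows from RefSeq.

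The 10 genes, the gene lists and the tests were chosen with earlier results of these data known. Of the lists, every gene called in at least 1 comparison was to be named, up to the 5 highest and the 5 lowest per list and comparison. Some of these genes are not reported here, and counts of list genes over left-out libraries leave them out. Genes named from marker lists are their defining markers and, chosen after their values were seen, Notch3, Acta2, Col1a1, Col3a1, Ly6a, Tek, Kdr, Flt1, Vwf, Lyz2, Cd68, Fmod, Mkx, Scx, Sdc4, Cdh15, Itga7, Vcam1, Myh1, Myh2 and Acta1. Exon length bins and the β chain shares were added after the data were seen. Alternatives were other pseudocounts, minimum means, scalings, prior variances, voom, 2 groups per fit, a replicate block and leaving out each library.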

Additional observations from a re-analysis of the deposited data

How the results depend on the processing

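Without a minimum mean, 989 genes were called in mdx against control, 168 in the Sirt6mKO/mdx-labelled libraries against mdx and 221 in the latter against control, and with one prior variance for all genes 541, 0 and 87. With the latter setting limma gave 3156 genes at an unadjusted p under 0.05 in the comparison with mdx. In both settings 0 of the 10 genes were called in each comparison. Scaling to equal totals gave 3411 calls in the third group against mdx and 3147 relative to control, with 8 and 6 of the 10 genes called. It moved the median of all genes to -0.58 in both and the share of higher calls from 68.8% to 14% and from 65.9% to 14.5%. Upper quartile scaling called 2 of the 10 in mdx against control, with Nid1 added, and moved the share of higher calls there from 48.4% to 56.2%.

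The following log2 fold changes, none of them called, turned sign. With upper quartile scaling, Lama2 was at 0.05 and Col15a1 at 0.01 in mdx against control and Smoc1 at -0.01 against mdx. With equal totals, Lama5 was at -0.22, Hmcn1 at -0.43, Lama3 at -0.13, P4ha1 at -0.01, Smoc1 at -0.49 and Vwa1 at -0.14 against mdx, and Nid1 at -0.53, Bcam at -0.20, Col18a1 at -0.42, Nid2 at -0.56 and Ppib at -0.07 in the third group against control. Without division by length, the Lama5 share in the third group was 23.41% and the Lama2 share 75.55%, and that of Lama2 in mdx 89.33%. The cause of these shifts was not tested.

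Leaving out 1 library at a time gave 939 to 2356 calls in mdx against control, 203 to 1475 in the third group against mdx and 213 to 1314 against control, and 0 to 2, 0 to 2 and 0 to 3 of the 10 genes called. Counts moved by over 1.5 times in mdx against control without control replicate 1 (1391) or mdx replicate 1 (939) or 2 (1330). They did so in the third group against mdx without mdx replicate 1 (481) or 2 (386) or Sirt6mKO/mdx replicate 1 (203) or 2 (254), and against control without control replicate 2 (572) or Sirt6mKO/mdx replicate 1 (361) or 2 (213). Uncalled log2 fold changes that turned sign in these fits ranged, in mdx against control, from -0.12 to 0.04 (Lama2), -0.17 to 0.38 (Col4a1), -0.43 to 0.27 (Col15a1), -0.58 to 0.16 (Crtap), -0.04 to 0.29 (Dag1) and -0.20 to 0.68 (Pxdn). In the third group they ranged from -0.23 to 0.61 (Hmcn1) and -0.64 to 0.82 (Smoc1) against mdx, and, against control, from -0.67 to 0.55 (Lama4), -0.68 to 0.53 (Lamb1), -0.26 to 0.42 (Nid1), -0.02 to 0.39 (Col18a1), -0.13 to 0.22 (Nid2) and -1.13 to 0.38 (Sparc).

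Over all alternatives and comparisons, log2 fold changes of the 10 genes kept their direction and side of the call in 449 cases, lost a call in 34, gained one in 16 and turned sign in 11.

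The labels number the replicates 1 and 2 in each group. The differences between replicates correlated across 15915 genes, which are not independent, with r of -0.13 between control and mdx, 0.12 between control and the third group and 0.01 between mdx and the third group, so the numbers did not pair the libraries. With the replicate block, 2415, 1510 and 1404 genes were called, and the same members as without the block (Lamb1, then Lama2 and Lamb1, then Lama2, Lama5 and Lamc1). With 2 libraries per group, the read numbers given above and 14 to 134 reads for Lama4, small differences were not detectable.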
